A study of Mus musculus with 6 samples.

Results

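The genes described here are 36 mitosis genes of the G2 and M phases, each measured by 1 probe in whole testes of newborn mice, out of 24568 genes fitted. They were found by their gene names among the non-control probes of the array, with only the probe of highest mean signal taken for each gene. All 36 had a probe, and the 36 chosen probes were well above background on all 6 arrays, so no member was lost to the filter on dim probes.

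Testes came from male mice at postnatal day 0 on an FVB.129/Sv mixed background, with 2 animals in each of 3 groups and 1 single-colour array per animal. VSKO mice had the genotype Vasa-cre;Sin3a deleted/floxed, HEMI mice Vasa-cre;Sin3a deleted/+, and WT mice Vasa-cre;Sin3a +/+. All 3 groups therefore carried the Cre recombinase, which is driven by the promoter of Ddx4 (Vasa), a gene of germ cells. By genotype, germ cells of VSKO testes lack both functional alleles where the Cre has acted. How complete this was at postnatal day 0 was not measured here. The other cells of the testis, which make up part of every sample, are not targeted by this Cre. The sample titles call both the KO and the hemizygous state germ cell-specific. They do not say whether the allele written as deleted was also lost in other cells. Sin3a encodes the scaffold of a corepressor complex with histone deacetylases. In bulk tissue of this kind, fewer cells of a type and less RNA per cell cannot be told apart. VSKO and HEMI arrays lay in the first row of the slide and WT arrays in the second, so slide row and genotype cannot be told apart in the comparisons with WT.

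Entry into mitosis is driven by cyclin B bound to CDK1, aided by the Polo and Aurora kinases. The spindle checkpoint then holds the anaphase-promoting complex (APC/C) back until every kinetochore is attached, after which the midzone proteins set up cytokinesis. The genes for these proteins are transcribed mainly in G2 and M, so their summed mRNA is widely read as a sign of dividing cells. In the testis around birth, Sertoli cells and interstitial cells divide, whereas the germ cells (gonocytes) are in mitotic arrest for part of this period.

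Many genes of this class are known to share promoter elements, the CHR (cell cycle genes homology region, TTTGAA or its variant TTCGAA) and the CCAAT box, which are bound by the MuvB complexes and by NF-Y. RefSeq promoters of build GRCm38.p6, covering 250 bases before and 50 bases after the start, were matched to 30 of the 36 genes. On either strand, TTTGAA was found in 21 of these 30 (70.0%), against 20.2% of 27025 genes with a promoter, and TTCGAA in 3 of 30 (10.0%), against 1.8%. CCAAT occurred at least once in 22 of 30 (73.3%), against 41.1% of all genes, and 2 or more times in 16 of 30 (53.3%), against 13.3%. Both kinds of motif stood together in 19 of 30 (63.3%), against 8.61% of all genes. Matches may share letters, as 2 CCAAT matches of Ube2c do, and a match describes the sequence and not a bound site. Printed here are the 150 bases before the start for 6 members described below, 4 of them with motifs in this stretch and 2 (Ndc80 and Birc5) without, in the direction of transcription and in lower case, with CHR and CCAAT motifs of either strand in capitals (TTCAAA and ATTGG are TTTGAA and CCAAT read on the other strand). They are Kif11 at chr19:37376232-37376381 and Birc5 at chr11:117849087-117849236 on the plus strand, and on the minus strand Ccnb1 at chr13:100786487-100786636, Cdk1 at chr10:69352913-69353062, Mki67 at chr7:135716380-135716529 and Ndc80 at chr17:71526858-71527007.
Kif11: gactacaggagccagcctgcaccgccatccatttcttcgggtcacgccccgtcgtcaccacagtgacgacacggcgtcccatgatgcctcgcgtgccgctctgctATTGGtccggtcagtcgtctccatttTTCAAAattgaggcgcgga
Ccnb1: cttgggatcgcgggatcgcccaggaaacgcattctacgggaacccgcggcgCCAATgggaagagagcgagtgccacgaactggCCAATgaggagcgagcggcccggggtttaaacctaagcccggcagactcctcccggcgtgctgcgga
Cdk1: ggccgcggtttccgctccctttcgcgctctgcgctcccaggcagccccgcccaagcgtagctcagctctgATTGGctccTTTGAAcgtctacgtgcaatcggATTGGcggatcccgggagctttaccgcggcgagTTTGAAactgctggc
Mki67: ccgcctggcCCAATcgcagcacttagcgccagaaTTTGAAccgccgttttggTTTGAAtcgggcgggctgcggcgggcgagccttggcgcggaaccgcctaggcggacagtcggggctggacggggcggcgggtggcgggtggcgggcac
Ndc80: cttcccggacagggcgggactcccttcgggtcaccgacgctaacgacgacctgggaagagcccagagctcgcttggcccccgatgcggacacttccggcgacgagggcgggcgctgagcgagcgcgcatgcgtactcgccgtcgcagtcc
Birc5: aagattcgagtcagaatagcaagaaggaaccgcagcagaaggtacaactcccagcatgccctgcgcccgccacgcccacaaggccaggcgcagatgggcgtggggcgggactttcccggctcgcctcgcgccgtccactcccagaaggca
Kif11 has 1 motif of each kind close to the start, Ccnb1 has 2 CCAAT boxes and no CHR letters in the printed stretch, and Cdk1 has 2 of each. Mki67 has its motifs near the far end of the stretch. Ndc80 and Birc5 have neither motif there, and the match of Ndc80 lies after the start.

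Signal levels are given as log2 processed signal after subtraction of the array's 75th percentile. They are comparable between arrays for 1 probe and not between probes. A gene is called changed where the p-value of the limma fit, adjusted over all 24568 genes, was under 0.05.

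None of the 36 mitosis genes changed between VSKO and WT testes, where 240 of all genes did (0.977%; 0.346% higher and 0.631% lower in VSKO). None changed between HEMI and WT, where 0.118% of all genes did (0.0326% higher and 0.0855% lower in HEMI). None changed between VSKO and HEMI, where 0.142% did (0.102% higher and 0.0407% lower in VSKO). At an unadjusted p under 0.05 there was 1 member in VSKO against WT (14.7% of all genes), 0 in HEMI against WT (12.4%) and 1 in VSKO against HEMI (7.68%). The gene was Kif11 both times. The smallest adjusted p among members was 0.146, 0.408 and 0.454 in these 3 comparisons.

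The differences were small. The median over the 36 members was 0.06 for VSKO minus WT, against -0.01 over all genes, with a range of -0.32 (Pbk) to 0.67 (Kif11). For HEMI minus WT it was 0.08, against -0.02 over all genes, with a range of -0.23 (Pbk) to 0.35 (Nek2). For VSKO minus HEMI it was 0.01, against 0.02 over all genes, with a range of -0.38 (Ttk) to 0.49 (Kif11). The difference was above 0 for 28 of 36 members in VSKO against WT (48.7% of all genes), for 26 of 36 in HEMI against WT (46.5%) and for 20 of 36 in VSKO against HEMI (55.4%). Without 1 array these counts ran from 19 to 31, from 19 to 27 and from 14 to 29, and with each array centred on its median they were 23, 28 and 13. The comparisons share arrays, since both sets against WT use the same 2 WT animals. A missed threshold does not show that levels were equal, but the 95% confidence intervals bound the size. The interval stayed within a 2-fold change either way for 35, 36 and 36 of the 36 members, and within a 1.5-fold change for 22, 24 and 29.

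**Figure D1:**
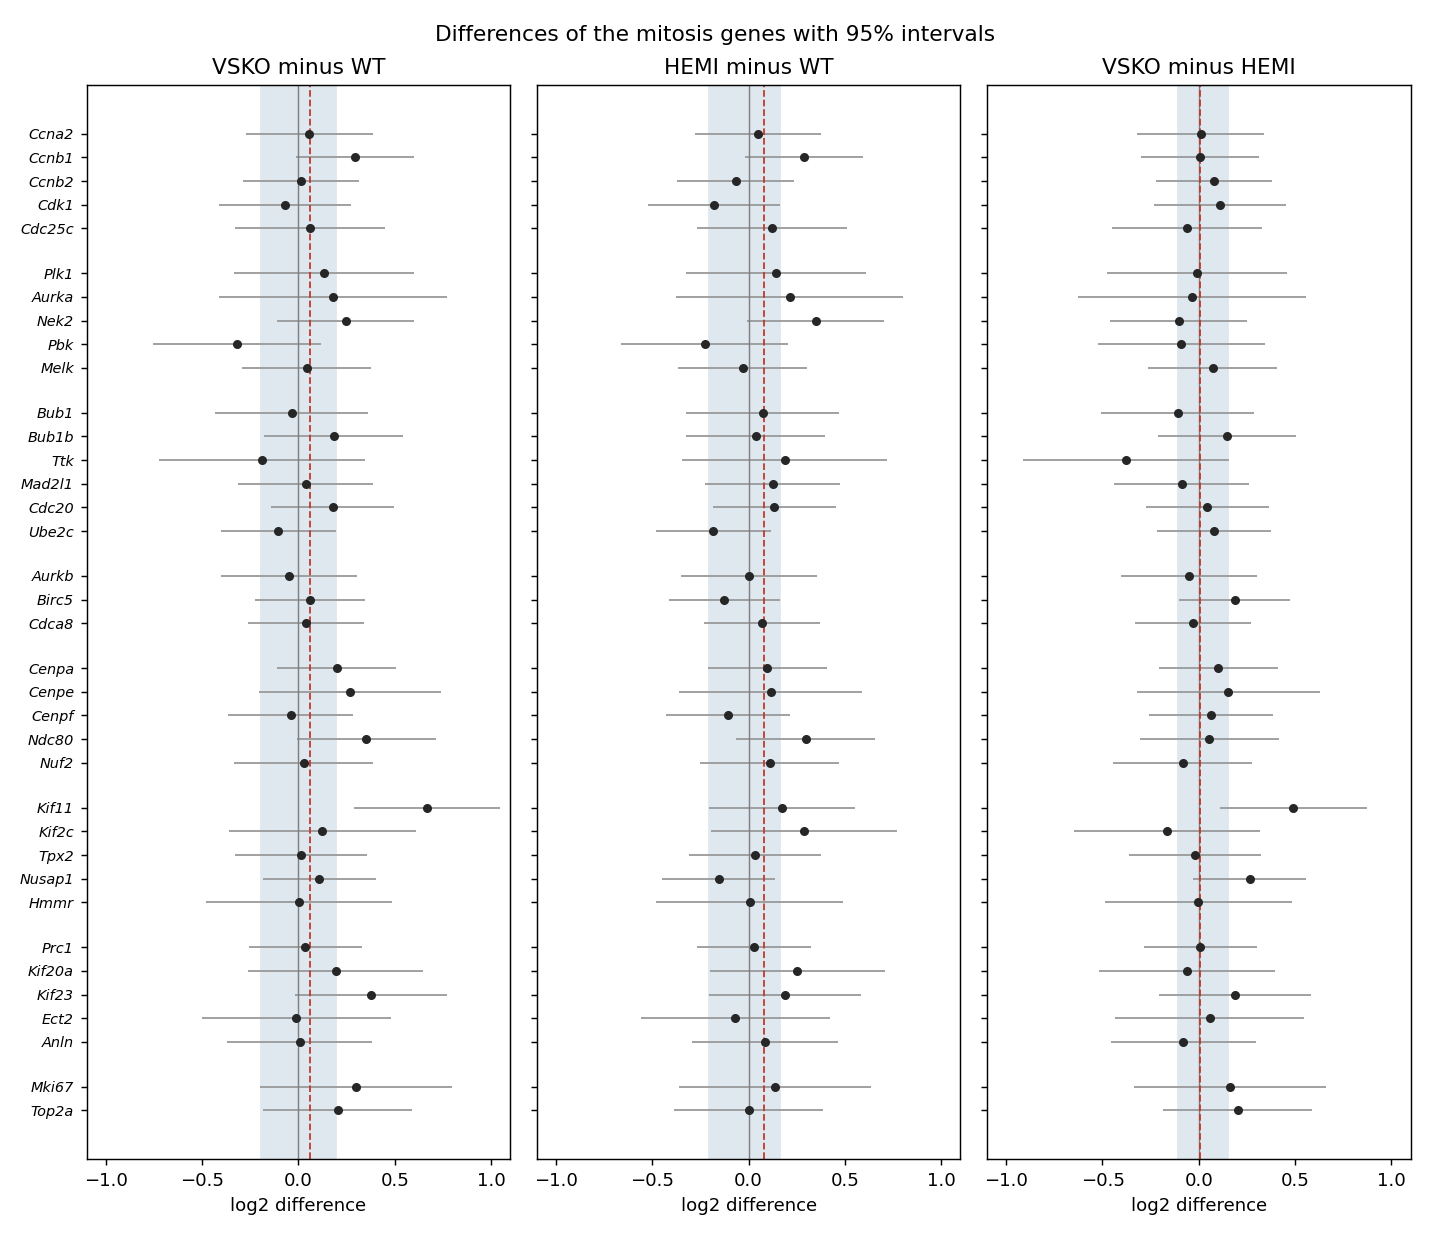
Differences of the 36 mitosis genes on the log2 scale (x axis), ordered by role, with points for the fitted difference and bars for its 95% confidence interval (2 animals per group). The blue band spans the middle 50% of all genes fitted, the red dashed line is the median of the members (0.06, 0.08 and 0.01), and Kif11 stands to the right in VSKO minus WT (0.67) and VSKO minus HEMI (0.49).

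The motors and microtubule-binding proteins of the spindle held the member with the largest difference. Kif11, the kinesin-5 motor that pushes the spindle poles apart, had log2 signals of 0.36 and 0.29 in VSKO testes, -0.18 and -0.15 in HEMI testes and -0.18 and -0.50 in WT testes. Both VSKO animals lay above all 4 other animals, and HEMI and WT overlapped. The VSKO minus WT difference was 0.67 ± 0.15 (SE), a 1.59-fold difference with a 95% interval of 1.22- to 2.07-fold, with an unadjusted p of 0.00603 and a limma adjusted p of 0.146. VSKO minus HEMI was 0.49 ± 0.15 (adjusted p = 0.454) and HEMI minus WT 0.17 ± 0.15 (adjusted p = 0.674). The gene has 1 probe on the array, at chr19:37495755-37495814 of mm9, so no other probe checks it.

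Nusap1, which bundles spindle microtubules, had 2.42 and 2.30 in VSKO, 2.11 and 2.08 in HEMI and 2.26 and 2.24 in WT. HEMI was the lowest group and VSKO the highest without overlap, with a VSKO minus HEMI difference of 0.27 ± 0.12 (SE, adjusted p = 0.731). The other 3 genes of this group were Kif2c, a kinesin that shortens microtubules, Tpx2, an activator of Aurora A on the spindle, and Hmmr, which binds spindle microtubules. Their VSKO minus WT differences ran between 0.00 (Hmmr) and 0.12 (Kif2c), and their adjusted p in any comparison was 0.598 or more. Kif2c and Hmmr were spread mainly by the WT animals, which had -0.19 and -0.60 for Kif2c and 1.21 and 0.70 for Hmmr.

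**Figure D2:**
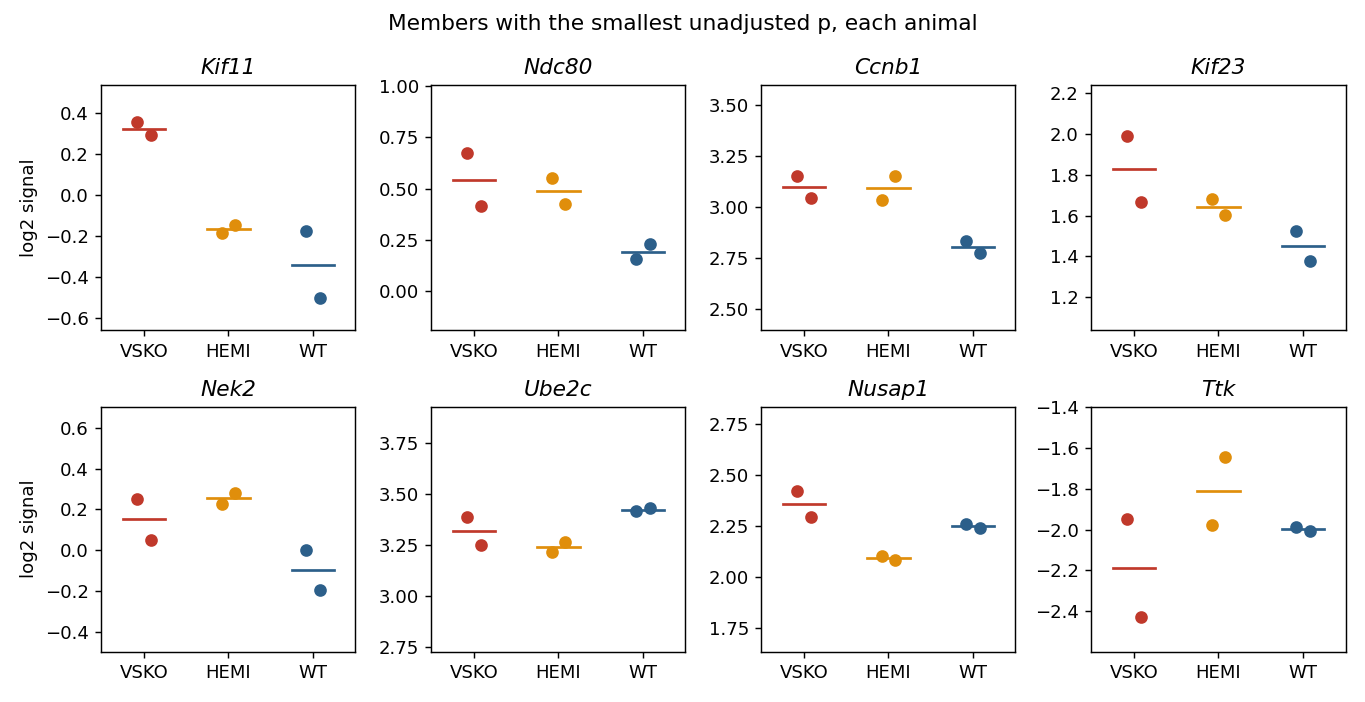
Log2 signal of each animal (points) and group mean (line) in VSKO, HEMI and WT testes for 8 members. Each is among the 4 with the smallest unadjusted p in a comparison, as is Birc5, which is not drawn. Every panel spans the same width of log2 signal, centred on that gene's mean, and in the Kif11 panel both VSKO animals (0.36 and 0.29) lie above all others.

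In the centromere and kinetochore group 4 of 5 genes had a positive VSKO minus WT difference, with a median of 0.20 over the group. Ndc80, a subunit of the complex that couples kinetochores to microtubules, had 0.67 and 0.41 in VSKO, 0.55 and 0.43 in HEMI and 0.16 and 0.23 in WT. Both WT animals were below the other 4, and VSKO and HEMI overlapped. The difference was 0.35 ± 0.14 for VSKO minus WT (SE, adjusted p = 0.349) and 0.30 ± 0.14 for HEMI minus WT (adjusted p = 0.483). Nuf2, its partner in that complex, did not share this pattern, with 0.03 for VSKO minus WT (adjusted p = 0.949) and overlapping animals. Cenpa, the histone H3 variant of centromeres, stood at 0.20 (adjusted p = 0.522), the kinetochore motor Cenpe at 0.27 (adjusted p = 0.569) and Cenpf at -0.04 (adjusted p = 0.910).

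The cyclin and CDK core had small differences in both directions. Ccnb1, which encodes cyclin B1, had 3.15 and 3.05 in VSKO, 3.03 and 3.15 in HEMI and 2.83 and 2.78 in WT. Both WT animals lay below the other 4. VSKO minus WT was 0.29 ± 0.12 (SE, adjusted p = 0.354), HEMI minus WT 0.29 ± 0.12 (adjusted p = 0.426) and VSKO minus HEMI 0.01 ± 0.12 (adjusted p = 0.999). Its partner kinase Cdk1 had 2.87 and 2.89 in VSKO, 2.65 and 2.89 in HEMI and 3.01 and 2.89 in WT. Cdk1 differed the other way, by -0.07 ± 0.14 for VSKO minus WT (adjusted p = 0.852) and -0.18 ± 0.14 for HEMI minus WT (adjusted p = 0.635). Ccna2 (cyclin A2), Ccnb2 (cyclin B2) and Cdc25c, the phosphatase that activates CDK1, lay between 0.01 and 0.06 for VSKO minus WT.

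Among the mitotic kinases Nek2, which acts in centrosome separation, had 0.25 and 0.05 in VSKO, 0.23 and 0.28 in HEMI and 0.00 and -0.19 in WT. WT was lowest, and HEMI minus WT was 0.35 ± 0.14 (SE, adjusted p = 0.408) against 0.25 ± 0.14 for VSKO minus WT (adjusted p = 0.491). Plk1, the Polo kinase of mitotic entry and exit, had 3.64 and 3.77 in VSKO, 3.64 and 3.78 in HEMI and 3.79 and 3.35 in WT. The 2 WT animals bracketed all the others, and VSKO minus WT was 0.13 ± 0.18 (adjusted p = 0.781). Aurka (Aurora A, spindle poles) was also widely spread in WT, with 3.18 and 2.59, where 1 animal was the lowest of all 6 and the other lay below the highest HEMI animal (3.24). Pbk, a kinase of dividing cells, had the lowest difference from WT of all members, with 2.58 and 2.25 in VSKO, 2.39 and 2.62 in HEMI and 2.81 and 2.65 in WT, and VSKO minus WT was -0.32 ± 0.17 (adjusted p = 0.470). Melk, another such kinase, stood at 0.04 (adjusted p = 0.914).

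The spindle checkpoint and APC/C genes were divided evenly, with 3 of 6 above 0 and a median of 0.00 for VSKO minus WT. Ttk, the kinase that starts checkpoint signalling, had -1.95 and -2.43 in VSKO, -1.98 and -1.64 in HEMI and -1.99 and -2.01 in WT. VSKO overlapped both other groups, both HEMI animals lay above WT, by a narrow margin in 1 of them, and VSKO minus HEMI was -0.38 ± 0.21 (SE, adjusted p = 0.873). Cdc20, the activator of the APC/C, had 4.19 and 4.27 in VSKO, 4.13 and 4.24 in HEMI and 4.12 and 3.98 in WT, with VSKO minus WT at 0.18 ± 0.13 (adjusted p = 0.574). Ube2c, the ubiquitin-conjugating enzyme of the APC/C, had 3.39 and 3.25 in VSKO, 3.22 and 3.26 in HEMI and 3.42 and 3.43 in WT. WT was highest for Ube2c, and HEMI minus WT was -0.18 ± 0.12 (adjusted p = 0.588). The checkpoint genes Bub1, Bub1b and Mad2l1 lay between -0.04 and 0.18 for VSKO minus WT.

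In the chromosomal passenger complex, which corrects faulty attachments and guides cytokinesis, Aurkb (Aurora B) had -1.03 and -1.20 in VSKO, -1.0 and -1.12 in HEMI and -0.97 and -1.16 in WT. The 3 groups overlapped almost fully, and VSKO minus WT was -0.05 ± 0.14 (SE, adjusted p = 0.904). Birc5 (survivin) had 4.97 and 4.88 in VSKO, 4.76 and 4.72 in HEMI and 4.89 and 4.85 in WT. HEMI was below the other groups, and VSKO minus HEMI was 0.19 ± 0.11 (adjusted p = 0.918). Cdca8 (borealin) stood at 0.04 for VSKO minus WT (adjusted p = 0.910).

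Of the midzone and cytokinesis genes Kif23, a motor subunit of centralspindlin, had 1.99 and 1.67 in VSKO, 1.68 and 1.60 in HEMI and 1.52 and 1.38 in WT. VSKO and HEMI overlapped narrowly and both lay above WT, with VSKO minus WT at 0.38 ± 0.16 (SE, adjusted p = 0.356) and HEMI minus WT at 0.19 ± 0.16 (adjusted p = 0.659). Kif20a, the motor that brings the passenger complex to the midzone, stood at 0.19 for VSKO minus WT (adjusted p = 0.672). Prc1, which bundles midzone microtubules, Ect2, the activator of RhoA at the division site, and the ring scaffold Anln (anillin) lay between -0.01 and 0.04.

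The chromosome structure genes are the ones most used as proliferation markers. Mki67, which encodes the Ki-67 coat of mitotic chromosomes, had 4.73 and 4.24 in VSKO, 4.26 and 4.39 in HEMI and 4.27 and 4.11 in WT. One VSKO animal was above all others and the other VSKO animal lay among HEMI and WT. VSKO minus WT was 0.30 ± 0.20 (SE, adjusted p = 0.548), and the value was 0.54 without VSKO animal 2 and 0.05 without VSKO animal 1. Top2a, the topoisomerase that untangles chromosomes, had 2.95 and 2.62 in VSKO, 2.54 and 2.62 in HEMI and 2.54 and 2.62 in WT. VSKO minus WT was 0.20 ± 0.15 (adjusted p = 0.594) and HEMI minus WT was 0.00 ± 0.15, with only VSKO animal 1 apart.

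**Figure D3:**
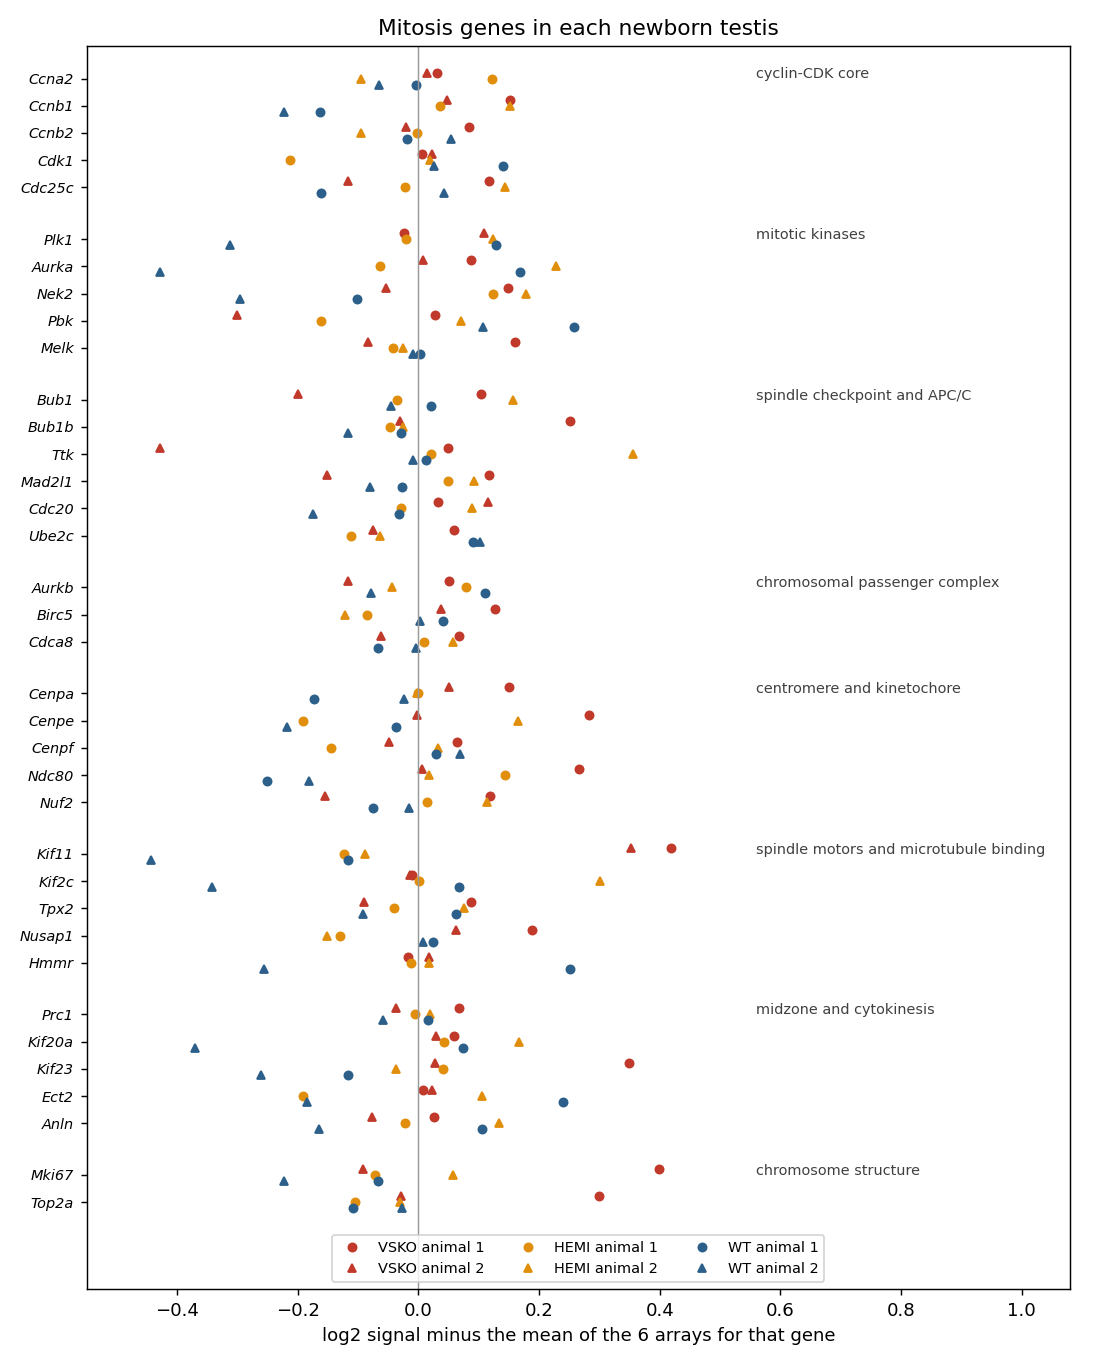
Log2 signal of each member in each animal, minus that gene's mean over the 6 arrays (x axis), with genes in rows grouped by role, colours for VSKO, HEMI and WT, and circles and triangles for animals 1 and 2. VSKO animal 1 lies to the right of 0 for 33 of 36 genes and WT animal 2 for 8 of 36, and the 2 animals of a group often lie on opposite sides.

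The 2 animals of a group differed in the same direction for most members. VSKO animal 1 was higher than VSKO animal 2 for 31 of 36 members, against 48.1% of all genes. HEMI animal 1 was higher for 8 of 36, against 48.6% of all genes, and WT animal 1 for 27 of 36, against 51.4%. The median over members of animal 1 minus animal 2 was 0.13 for the VSKO pair, -0.09 for the HEMI pair and 0.08 for the WT pair. These are differences of single animals, whereas the medians between groups are differences of means of 2 animals. Their sizes are therefore not ranked against each other. The largest gaps were 0.49 for Mki67 in VSKO, 0.36 in size for Cenpe in HEMI and 0.60 for Aurka in WT. The numbers 1 and 2 only name animals.

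The median deviation of the members from each gene's own mean was 0.09 and -0.02 in VSKO, -0.02 and 0.06 in HEMI and 0.01 and -0.08 in WT. The pooled SD of these medians within groups was 0.07. The median of VSKO minus WT accordingly ran between 0.02 without VSKO animal 1 and 0.13 without VSKO animal 2, with 0.12 without WT animal 1 and 0.03 without WT animal 2. The median of HEMI minus WT was 0.12 without HEMI animal 1 and 0.03 without HEMI animal 2, and 0.11 without WT animal 1 and 0.01 without WT animal 2. The median of VSKO minus HEMI was -0.04 without VSKO animal 1 and 0.06 without VSKO animal 2, and -0.06 with each array centred on its median.

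**Figure D4:**
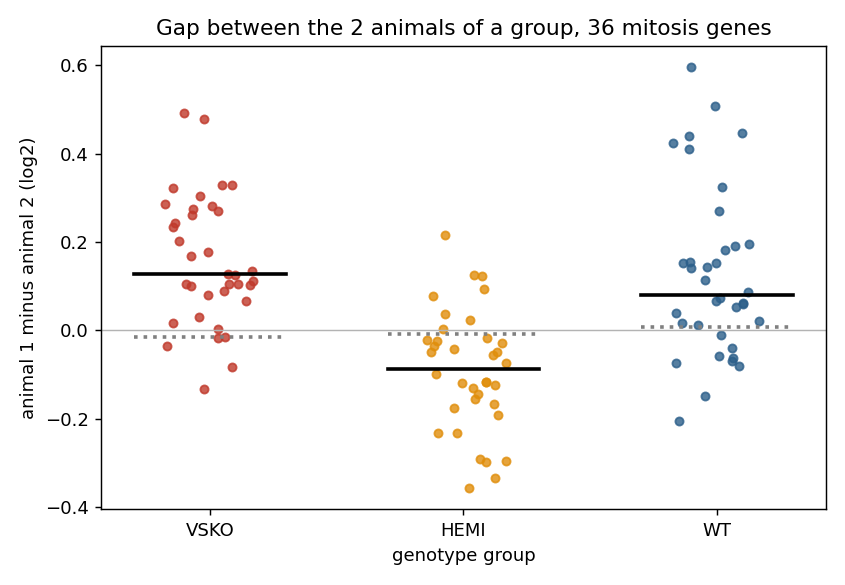
Log2 signal of animal 1 minus animal 2 (y axis) in VSKO, HEMI and WT testes for the 36 mitosis genes (points, spread sideways for sight), with the median of the members as a black line and that of all genes as a dotted line. Most points lie above 0 in VSKO (31 of 36) and WT (27 of 36) and below 0 in HEMI (8 of 36 above).

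The members were otherwise measured tightly. Their residual SD within groups had a median of 0.12, from 0.04 (Birc5) to 0.27 (Aurka), against 0.16 over genes above background on all 6 arrays. Groups that did not overlap were counted in each direction. VSKO was above WT for 10 members (22.3% of all genes) and below for 3 (23.4%). HEMI was above WT for 10 (20.9%) and below for 6 (28.4%). VSKO was above HEMI for 5 (18.8%) and below for 1 (14.1%). The distance between group means exceeded the gaps within both groups for 7 of 36 members in VSKO against WT (19.4%, against 32.6% of all genes), for 11 in HEMI against WT (30.6%, against 36.5%) and for 4 in VSKO against HEMI (11.1%, against 21.3%).

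Further probes were present for 12 of the 36 genes, and those of Ect2 and Kif23 were not above background on all arrays. Of 15 further probes that were, 11 had the same sign as the chosen probe for VSKO minus WT, and 12 lay within 0.25 of it. The second Mki67 probe gave 0.39, beside 0.30, and the 2 further Ccnb1 probes gave 0.14 and 0.18, beside 0.29. The probes outside that range were the second Tpx2 probe, with 0.28 beside 0.01, and those of the checkpoint gene Mad2l1. The Mad2l1 gaps were the largest for VSKO minus WT. Its brightest probe, at chr6:66490836-66490895 of mm9, gave 0.04 for VSKO minus WT, and the 2 dimmer ones, at chr6:66490355-66490414 and chr6:66490067-66490126, gave -0.63 and -0.51. In the first of these dimmer probes the signals were -2.49 and -2.34 in VSKO, -2.47 and -1.91 in HEMI and -1.26 and -2.31 in WT. WT animal 1 thus stood alone. For HEMI minus WT, 8 of the 15 further probes had the sign of the chosen probe and 13 lay within 0.25 of it. For VSKO minus HEMI these counts were 10 and 12, with the largest gap in Nuf2 (0.41).

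Other genes of mitosis, in 6 lists with 122 genes, gave like values. None changed in any comparison. At an unadjusted p under 0.05 there were 7 of the 122 in VSKO against WT (5.74%, against 14.7% of all genes). There were 7 in HEMI against WT (5.74%, against 12.4%) and 3 in VSKO against HEMI (2.46%, against 7.68%). Their medians were 0.08, 0.08 and 0.02. The list of kinesins and other spindle genes had the highest median against WT, 0.18 for VSKO minus WT and 0.13 for HEMI minus WT. Of its 27 genes, 23 and 22 were above 0, against 48.7% and 46.5% of all genes. Kifc1, a minus-end motor, stood at 0.35 ± 0.11 for VSKO minus WT (SE, adjusted p = 0.264). The microtubule destabiliser Stmn1 stood at 0.43 ± 0.11 for HEMI minus WT (adjusted p = 0.249) and at -0.51 ± 0.11 for VSKO minus HEMI (adjusted p = 0.267). Condensin and cohesin genes had medians of 0.04, 0.00 and 0.02 in the 3 comparisons, APC/C and separase genes 0.09, 0.06 and 0.01, and other checkpoint and kinetochore genes 0.04, 0.07 and 0.00. Other CDK control genes had 0.06, 0.01 and -0.05, and other cytokinesis genes 0.10, 0.12 and 0.08. In 40 genes of DNA replication and S phase, the phase before G2, the medians were -0.11, -0.06 and -0.03, and none changed. Above 0 were 8, 11 and 17 of them, against 48.7%, 46.5% and 55.4% of all genes. At an unadjusted p under 0.05 were 5, 5 and 1, against 14.7%, 12.4% and 7.68% of all genes. The smallest p for VSKO minus WT were those of Prim2 at 0.85 (adjusted p = 0.0766) and Orc1 at -0.50 (adjusted p = 0.186).

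The regulators of these genes were also compared. Foxm1, the forkhead factor that activates G2/M genes, had 1.18 and 0.72 in VSKO, 0.86 and 0.91 in HEMI and 0.68 and 0.86 in WT, with overlapping groups (VSKO minus WT 0.18 ± 0.19 SE, adjusted p = 0.714). Mybl2, which encodes B-Myb, had 1.67 and 1.51 in VSKO, 1.79 and 1.93 in HEMI and 1.96 and 2.09 in WT. VSKO was lowest for Mybl2, with VSKO minus WT at -0.43 ± 0.13 (adjusted p = 0.244). None of the 15 regulators changed, and their medians were 0.02, 0.07 and -0.04. At an unadjusted p under 0.05 were 4, 2 and 1 of them, against 14.7%, 12.4% and 7.68% of all genes. Rbl2 had the smallest p of them against WT, at 0.42 for VSKO minus WT (adjusted p = 0.188) and 0.51 for HEMI minus WT (adjusted p = 0.182). Among 15 cell cycle inhibitors and arrest genes none changed either, and the medians were -0.14, -0.25 and 0.04. At an unadjusted p under 0.05 were 3, 4 and 1 of them, beside the same shares of all genes. Cdkn1a, which encodes the CDK inhibitor p21, had -1.83 and -1.17 in VSKO, -1.62 and -1.82 in HEMI and -2.33 and -1.90 in WT, with VSKO minus WT at 0.62 ± 0.27 (adjusted p = 0.385). Cdkn1b, which encodes p27, differed by -0.09 ± 0.12 (adjusted p = 0.783).

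**Figure D5:**
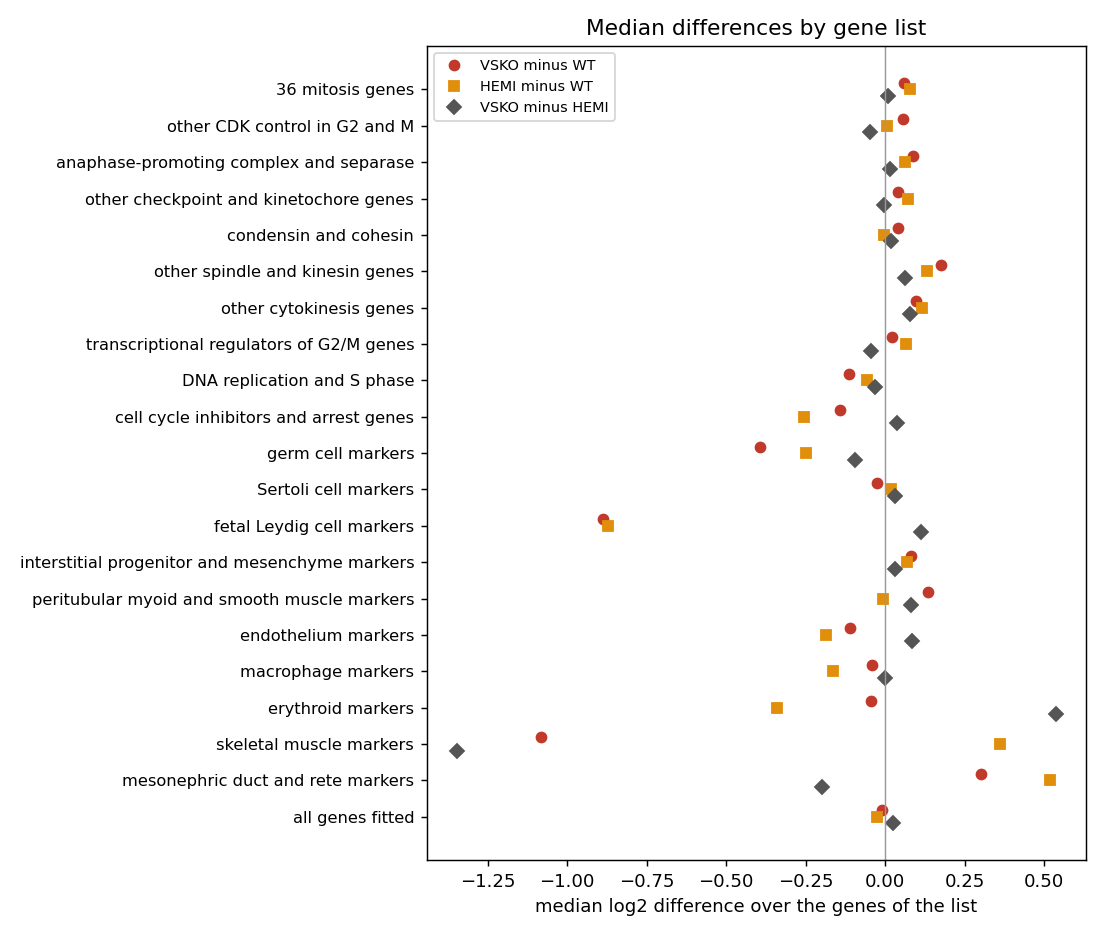
Median log2 difference (x axis) over the 36 mitosis genes, related gene lists, cell type markers and all genes fitted (rows), with symbols for VSKO minus WT, HEMI minus WT and VSKO minus HEMI. The mitosis lists lie between -0.05 and 0.18, and the fetal Leydig cell markers at -0.89 and -0.87 against WT. The skeletal muscle markers lie at -1.08 for VSKO minus WT and -1.35 for VSKO minus HEMI. For these the 2 animals of a group were far apart, with median deviations of 1.34 and -0.66 in WT and -0.30 and 1.23 in HEMI.

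Sin3a itself had 0.61 and 0.38 in VSKO, 0.89 and 0.89 in HEMI and 1.09 and 1.11 in WT, in the order of intact alleles and without overlap. VSKO minus WT was -0.60 ± 0.13 (SE, adjusted p = 0.134), and whether the probe lies in the deleted part is not given in the sources used here. Germ cell markers were present, with 12 of 12 above background on all arrays, and their median difference was -0.39 for VSKO minus WT, -0.25 for HEMI minus WT and -0.09 for VSKO minus HEMI. In these comparisons 1, 1 and 4 of the 12 were above 0 (48.7%, 46.5% and 55.4% of all genes). At an unadjusted p under 0.05 were 5, 3 and 4 of them (14.7%, 12.4% and 7.68% of all genes). Elavl2 and Stk31 had the smallest p for VSKO minus WT, at -0.97 (adjusted p = 0.0562) and -0.79 (adjusted p = 0.103). The summed signal of the germ cell markers, in units of the 75th percentile, was 35.1 and 33.9 in VSKO, 33.8 and 37.9 in HEMI and 36.6 and 41.5 in WT. Sertoli cell markers, also 12 of 12 above background, summed to 519 and 485 in VSKO, 452 and 552 in HEMI and 533 and 539 in WT. Fetal Leydig cell markers (7 of 8 fitted, Insl3 not) summed to 112 and 113 in VSKO, 99.7 and 120 in HEMI and 164 and 197 in WT. One of them, Cyp17a1, an enzyme of androgen synthesis, fell in VSKO against WT by 1.40 on the log2 scale (adjusted p = 0.0423). Cyp17a1 also stood lower in HEMI testes, at -1.03 relative to WT, without passing the threshold (adjusted p = 0.12). Between the 2 carrier groups, VSKO and HEMI, the Cyp17a1 difference was -0.36 (adjusted p = 0.751). Mesonephric duct and rete markers had medians of 0.30 for VSKO minus WT, 0.52 for HEMI minus WT and -0.20 for VSKO minus HEMI. Of the 8, only the transcription factor gene Lhx1 changed in VSKO against WT, by 1.25 on the log2 scale (adjusted p = 0.0431). Its rise over WT was larger in HEMI testes, at 1.52, but narrowly missed the threshold there (adjusted p = 0.0527). Lhx1 in VSKO lay at -0.27 relative to HEMI (adjusted p = 0.867). Within VSKO, 10 of 12 Sertoli cell markers were higher in animal 1, as 31 of 36 mitosis genes were, and within HEMI 1 of 12 was higher in animal 1, beside 8 of 36. In WT the mitosis genes were higher in animal 1 (27 of 36) and the Sertoli cell markers were not (4 of 12). Endothelial markers were higher in animal 1 for 7 of 8 in VSKO, 2 of 8 in HEMI and 1 of 8 in WT, and germ cell markers for 8, 4 and 3 of 12 in VSKO, HEMI and WT. In the same order the counts were 5, 5 and 1 of 8 for interstitial markers and 1, 6 and 1 of 6 for peritubular myoid markers. They were 0, 8 and 7 of 8 for macrophage markers and 2, 8 and 1 of 8 for mesonephric markers. Fetal Leydig cell markers had 5, 0 and 0 of 7, erythroid markers 1, 0 and 2 of 5 and skeletal muscle markers 2, 0 and 7 of 7. Erythroid markers summed to 143 and 357 in VSKO, 125 and 136 in HEMI and 148 and 149 in WT, and skeletal muscle markers to 7.86 and 14.0 in VSKO, 12.5 and 33.4 in HEMI and 35.3 and 9.02 in WT. The part of any of these cell types in the values of the mitosis genes was not tested.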

How the data were processed

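RNA of 6 whole testes was hybridised to single-colour (Cy3) Agilent arrays. Per the file headers, the deposited processed signal is a linear intensity from which Feature Extraction had subtracted background, in version 10.7.3.1 (8.5.1.1 per the submitters' processing notes); the deposited mean and background intensities were used for an alternative. The deposited quality flags (other, 0 or 1) mark spots that are outliers, saturated or well above background. The authors' series table holds the same intensity divided by each array's median. Of 59305 non-control spots, 59.2% to 64.5% per array were well above background and 0 were saturated. With 2 arrays per group, the number of arrays limits the precision.

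Signals were scaled to each array's 75th percentile, taken to log2, averaged over spots of a probe, and kept where well above background on both arrays of a group (34365 probes). Names were updated through RefSeq GRCm38.p6. All 6 arrays were fitted with limma 3.58.1 (R 4.3.3; 3 residual and 2.25 prior degrees of freedom) with Benjamini-Hochberg adjustment; the fit was tested on simulated data. The members and lists were chosen with earlier results of these data known. Named members are 8 standing ones and the 4 with the smallest p per comparison; Pbk and others that mark a range or exception were named after their values were seen. Alternatives were other scalings, background correction, filters, probe rules, variance models, sample sets, a replicate block and leaving out each array.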

Additional observations from a re-analysis of the deposited data

Results flagged for a closer look

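One signal lay outside the probes used for the mitosis genes. A second, dim probe of Ect2, at chr3:27020829-27020888 of mm9, was well above background on both VSKO arrays and on no HEMI or WT array. Its log2 signals were -5.46 and -5.01 in VSKO, -5.50 and -7.53 in HEMI and -6.70 and -6.28 in WT, and VSKO minus WT was 1.2577. The probe thus passed the filter on dim probes only through the group where it was high. Its WT signals were not well above background, so the size of this difference cannot be relied on. One HEMI animal had nearly the value of the lower VSKO animal. The bright Ect2 probe gave -0.01 for the same difference.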

How the results depend on the processing

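Alternatives numbered 16, with 10 other settings and 6 leaving out 1 array. No mitosis gene was called changed in any of the 3 comparisons under the 10 other settings. Members at an unadjusted p under 0.05 numbered 0 to 4 in these. The 4 were in VSKO against WT with a variance trend over intensity, beside 3736 of all 24568 genes. The smallest adjusted p was 0.0963, for Kif11 in VSKO against WT. The median of VSKO minus WT ran from 0.0176 to 0.1313 without 1 array. With the mean over probes it was 0.1159, beside 0.0583 in the main fit. That rule also gave 15 members higher without overlap in VSKO against WT, beside 10 in the main fit. In HEMI against WT the same rule gave a median of 0.0423, beside 0.0793, and 8 members higher, beside 10. The median of VSKO minus HEMI was -0.0621 with median scaling and with the series table. Members without overlap numbered 1 lower in VSKO against WT with quantile scaling and 1 lower in HEMI against WT with median scaling or the series table. In VSKO against HEMI they were 3 higher and 3 lower with those, and 2 lower with quantile scaling, normexp or the mean over probes. The shares of all genes without overlap, given above, are those of the main fit, so these counts have no share beside them.

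Counts over all genes depended more on the setting. In VSKO against WT they were 12 without the filter, 42 with 2 groups only and 0 to 69 without 1 array, with 0 when either WT array was left out (2623 and 2819 at an unadjusted p under 0.05). A lone array was assumed to vary like the other groups. In HEMI against WT they were 55 with median scaling or the series table, 131 with normexp, 0 without the filter (5280 at an unadjusted p under 0.05), 68 with probes above background on all arrays, 130 with a trend, 4 with 2 groups only and 0 to 8 without 1 array (at least 2018 at an unadjusted p). In VSKO against HEMI they were 74 with median scaling or the series table, 17 with quantile scaling, 5 without the filter, 15 with probes above background on all arrays, 0 with 2 groups only (1741 at an unadjusted p) and 0 to 41 without 1 array (at least 1693 at an unadjusted p). The replicate numbers did not pair animals (correlations of deviations -0.03, -0.01 and -0.04). Under the replicate block the counts over all genes were 19, 0 and 0 (3442, 2796 and 1872 at an unadjusted p). Each group has 1 animal of each number, so the block cannot move the members' medians (0.0583, 0.0793 and 0.0089). The cause of these shifts was not tested.

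Signs turned for small differences, 13 times in 450 gene settings outside those leaving out 1 array and 20 times in 270 of those. No rate is read from these counts, since many of the settings could not turn a sign. A variance trend, 2 groups only, the replicate block and other filters on dim probes left the named differences unchanged. So did leaving out an array of the group not compared, and the series table repeated median scaling. Aurkb for VSKO minus WT was 0.0203 with normexp. Top2a for HEMI minus WT was 0.0387 with median scaling or the series table, 0.0046 with quantile scaling and 0.0048 with normexp. For VSKO minus HEMI, Ndc80 was -0.0153, Ccnb1 -0.0646 and Cdc20 -0.0264 with median scaling or the series table, Ccnb1 was -0.0969 with the mean over probes, and Plk1 was 0.0147 with normexp. Without 1 array, VSKO minus WT ran from -0.4292 to 0.0481 for Ttk, -0.1437 to 0.0465 for Aurkb and -0.0859 to 0.3546 for Plk1. HEMI minus WT ran from -0.0404 to 0.0399 for Top2a, -0.0771 to 0.3634 for Plk1 and -0.0934 to 0.0968 for Aurkb. VSKO minus HEMI ran from -0.0749 to 0.1864 for Ndc80, -0.0519 to 0.0649 for Ccnb1, -0.0849 to 0.4064 for Mki67, -0.0808 to 0.0633 for Plk1, -0.1339 to 0.0334 for Aurkb, -0.0053 to 0.2268 for Cdk1 and -0.0144 to 0.1037 for Cdc20.

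No scaling moved the median of all genes by more than 0.1. The limits are 2 animals per group, 1 slide whose rows separate WT from the others, and whole tissue in which dividing cell types were not separated.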
